A study of Mus musculus with 12 samples.

Results

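A group of 10 miRNAs known from neurons and glia was followed in mouse carotid arteries: mmu-miR-124, mmu-miR-9, mmu-miR-9*, mmu-miR-129-3p, mmu-miR-137, mmu-miR-138, mmu-miR-153, mmu-miR-219, mmu-miR-338-3p and mmu-miR-383, written below without the prefix for mouse. They were taken by name from a panel of quantitative PCR assays, and make up 10 of the 513 miRNA assays with values. The arteries came from female apoE-/- mice, which lack apolipoprotein E and are prone to arterial plaques, aged 6 to 8 weeks. Their high-fat diet, given for 6 weeks, held 19.5% casein, 21% fat and 0.15% cholesterol. In the ligated group (6 samples) the left common carotid artery had been partially ligated by closing its external, internal and occipital branches, so that blood left mainly through the superior thyroid artery, and the labels call these arteries atherosclerotic. In the control group (6 samples) the right carotid artery was left untreated. Both groups thus share the mutation and the diet and differ in body side as well as in ligation, which cannot be told apart, and the series text gives 6 operated mice.

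MiRNAs are short RNAs that bind messenger RNAs through their seed, bases 2 to 8, and lower the output of those messages. The carotid wall carries sympathetic nerve fibres and their Schwann cells in its outer layer, while the cell bodies of these neurons lie in ganglia outside the vessel, and the vagus nerve runs beside it. RNA of a whole artery can therefore hold miRNAs of axons, glia and adhering nerve, and several of the miRNAs followed here are also made by other cells. In such bulk samples, fewer cells of a type and less RNA per cell cannot be told apart, and no cell source was measured here.

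Mature sequences were found for 8 of the 10 miRNAs in RefSeq (GRCm38.p6). They are shown to make clear that the assays read unrelated seeds, with bases 2 to 8 in capitals. The older assay names were matched to the present names of the arms (miR-9 is miR-9-5p, miR-9* is miR-9-3p, miR-137 and miR-153 are the 3p arms, miR-138 is the 5p arm, miR-219 is miR-219a-5p and miR-129-3p is miR-129-2-3p). The others, miR-124 and miR-383, are named only.
miR-9: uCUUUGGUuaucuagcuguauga
miR-9*: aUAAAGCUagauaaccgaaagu
miR-129-3p: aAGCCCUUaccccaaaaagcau
miR-137: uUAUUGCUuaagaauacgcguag
miR-138: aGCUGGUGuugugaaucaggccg
miR-153: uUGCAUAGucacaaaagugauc
miR-219: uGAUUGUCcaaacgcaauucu
miR-338-3p: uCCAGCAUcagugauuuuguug

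All 8 seeds differ, so the 8 miRNAs share no seed family. miR-9 and miR-9* are the 2 arms of the same hairpins and are encoded at 3 loci, Mir9-1 (miR-9 arm at chr3:88215613-88215635), Mir9-2 (chr13:83738821-83738843) and Mir9-3 (chr7:79505279-79505301), all on the plus strand and each within the span of a long noncoding RNA gene (Gm3764, C130071C03Rik and Mir9-3hg). The Mir9-2 hairpin (chr13:83738814-83738885) is shown with both arms in capitals, because the arms are measured by separate assays and are compared further on.
Mir9-2: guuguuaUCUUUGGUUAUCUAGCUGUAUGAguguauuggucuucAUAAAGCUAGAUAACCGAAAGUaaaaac

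Of the others, miR-138 has 2 loci (chr8:94324312-94324334 within the span of Nup93, and chr9:122682898-122682920) and miR-219 has 2 (chr2:29845689-29845709 within the span of Cercam, and chr17:34025052-34025072). miR-338-3p lies within the span of Aatk (chr11:120014781-120014802), miR-153 within those of Ptprn2 and the long noncoding RNA Gm5441 (chr12:117250860-117250881), and miR-129-3p within that of Mir670hg (chr2:94241376-94241397). For miR-137 (chr3:118433901-118433923) no gene other than its own was found to span the site. Whether these positions are exonic or intronic was not read.

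The measure was the threshold cycle (Ct), the PCR cycle at which a product becomes visible, so abundant RNA has a low Ct. Wells with a Ct under 35 counted as detected, and the rest were set to 35. Levels are given on a log2 scale as the mean Ct of the 283 miRNAs found in all 12 samples minus the Ct of the miRNA, so that a step of 1 is a 2-fold change where amplification is perfect. Per sample, 317 to 357 assays were detected. The markers of the labelled tissue were present throughout. Ct values were at most 20.5 for miR-143 and 16.8 for miR-145 of smooth muscle and 19.7 for miR-126-3p of endothelium. Liver miR-122 was undetected in all. Markers of other tissues were detected too. Epithelial miR-200a, miR-200b and miR-429 had Ct values of 19.29, 19.66 and 19.26 in ligated 1 and higher ones in every other sample. Striated muscle miR-133a was detected in all 12 samples, from a Ct of 17.0 in ligated 1 to 22.81 in ligated 4. Samples with the numbers 1 to 3 and samples with the numbers 4 to 6 stand as separate blocks of columns and differed in many assays, which no label explains, so values are also given within each set.

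None of the 10 neuronal miRNAs passed the test between ligated and control arteries, and they differed in how often they were detected. Of the 10, 6 (miR-9, miR-9*, miR-129-3p, miR-137, miR-138 and miR-338-3p) were detected in all 12 samples. miR-124 was detected in 6 of 6 ligated and 5 of 6 control samples, miR-153 and miR-383 each in 6 of 6 ligated and 3 of 6 control samples, and miR-219 in 4 of 6 ligated and 1 of 6 control samples. All 10 passed the filter of detection in at least 4 samples of a group, but miR-153, miR-219 and miR-383 passed it through the ligated group alone. The detection counts did not differ by Fisher's exact test (two-sided, n = 6 per group), with p = 0.182 for miR-153 and for miR-383, p = 0.242 for miR-219 and p = 1 for miR-124, and an adjusted p of 1 for each. In limma's moderated test over all 339 tested miRNAs with Benjamini-Hochberg adjustment, 0 of the 10 were higher and 0 were lower in ligated arteries, where 7.37% of all tested miRNAs were higher and 5.01% lower (12.4% in either direction). With replicate numbers fitted as a block, the 10 again had 0 calls, where 8.85% of all were higher and 6.49% lower (15.3% in either direction). None had an unadjusted p below 0.05 in limma or in the exact two-sided permutation test over samples (924 arrangements), and limma's adjusted p-values lay between 0.379 and 0.934. Values were higher on average in ligated arteries for 7 of the 10 and lower for 3, beside 162 higher of all 339 tested miRNAs. The 7 include miR-153, miR-219 and miR-383, which passed the filter through the ligated group alone. Among the 6 detected in every sample, miR-137, miR-138 and miR-338-3p were higher and miR-9, miR-9* and miR-129-3p lower. The median difference was 0.74 over the 10 and 0.31 over the 6 detected in every sample, beside -0.05 over all 339. With raw Ct and no scaling, the median over all miRNAs moved to 0.93 and that of the 10 to 1.72, with no member called. The groups overlapped for each of the 10, while 4.72% of all tested miRNAs lay higher in every ligated sample than in any control sample and 2.36% lower.

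**Figure D1:**
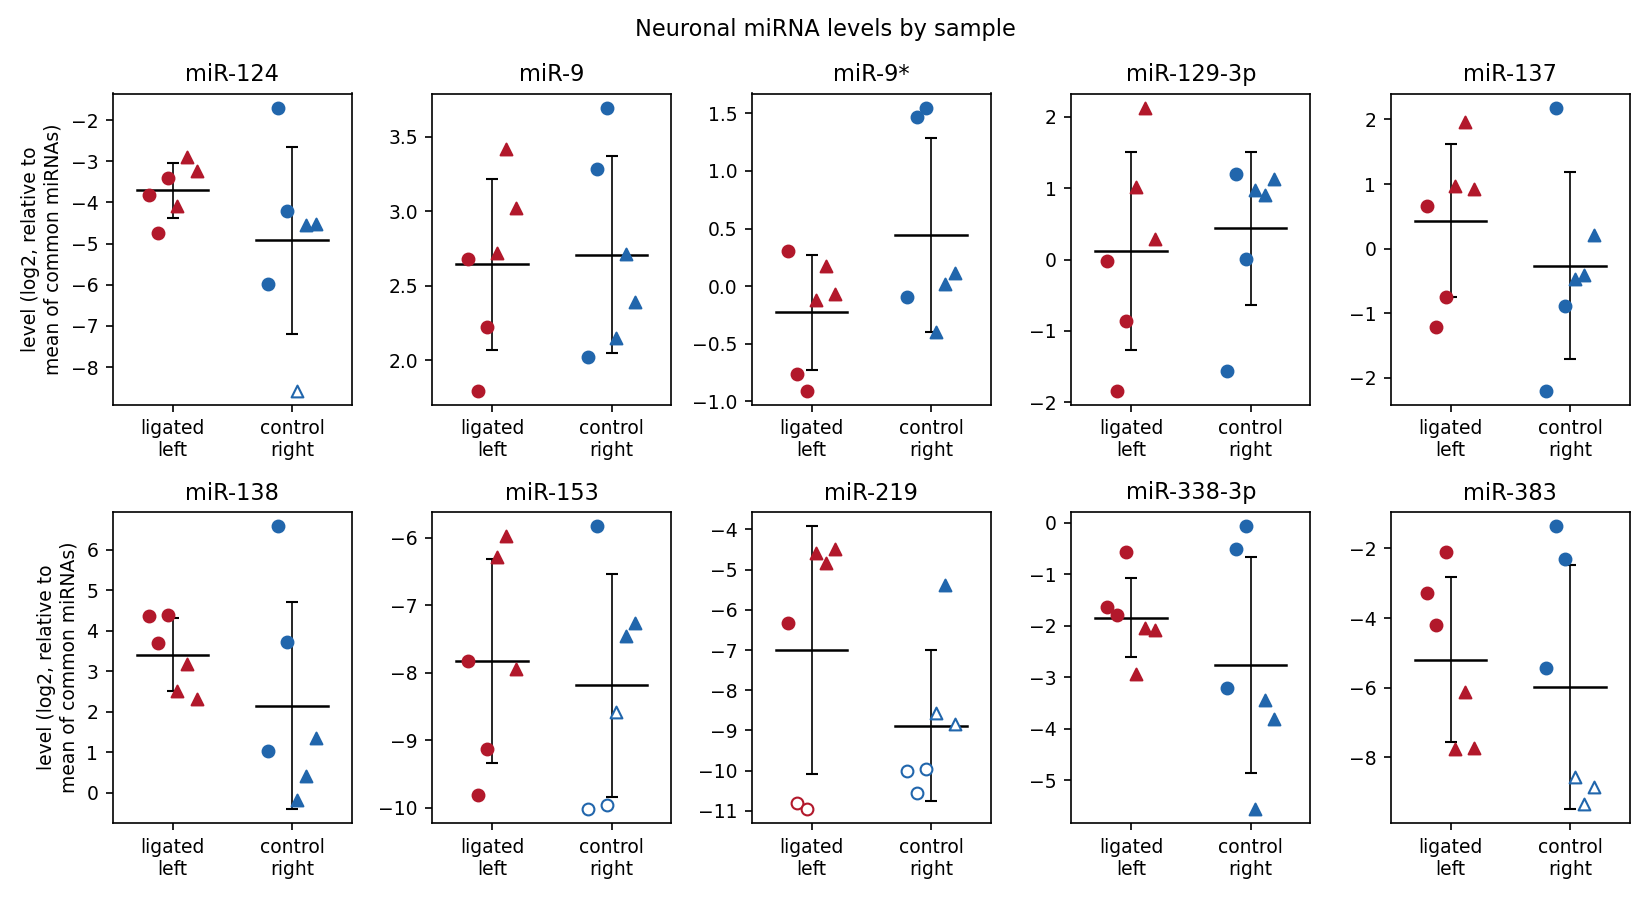
Level of each of the 10 miRNAs (log2, against the sample's average over the commonly detected miRNAs) in the 6 ligated left and 6 control right arteries. Points are samples (circles, numbers 1 to 3; triangles, numbers 4 to 6; open symbols, undetected wells set to a Ct of 35), bars are mean and SD, and each panel has its own axis. The groups overlap in every panel, and for miR-138 control samples run from -0.18 to 6.58 against 2.31 to 4.39 in ligated samples.

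miR-124 is the most abundant miRNA of brain neurons, where it represses non-neuronal messages. Its detected Ct values lay between 26.15 and 30.97. Its level was -4.75 at the lowest, -3.62 at the median and -2.89 at the highest in ligated samples, against -8.57, -4.53 and -1.70 in control samples, the lowest being an undetected well in control 4. The ligated samples thus lay inside the wider control range. Its difference was 1.22 ± 0.89 (SE, n = 6 per group), with a 95% interval of -0.73 to 3.17 and an adjusted p of 0.485 (limma). The difference was 0.48 without control 4 and 1.86 without control 2, so its size rests on those samples.

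miR-9 and miR-9* come from the same hairpins and act in neural progenitors, where they promote neuronal differentiation; in human monocytes and neutrophils miR-9 is also induced by inflammatory signals. miR-9 had levels of 1.80, 2.70 and 3.42 (lowest, median, highest) in ligated samples and 2.02, 2.55 and 3.70 in control samples. The ranges nearly coincided, and the difference was -0.07 ± 0.36 (SE), with a 95% interval of -0.85 to 0.72 and an adjusted p of 0.934 (limma). This interval does not reach a 2-fold change in either direction. With raw Ct the miR-9 difference was positive, at 0.92. miR-9* had levels of -0.91, -0.09 and 0.31 in ligated samples and -0.40, 0.07 and 1.55 in control samples. Controls 2 and 3, at 1.47 and 1.55, lay above every other sample. Its difference was -0.67 ± 0.40 (SE), with a 95% interval of -1.53 to 0.19 and an adjusted p of 0.379 (limma), the lowest of the 10, and was 0.31 with raw Ct.

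miR-137, which regulates neuronal maturation and dendrites in mice, had levels of -1.21, 0.80 and 1.96 in ligated samples and -2.20, -0.43 and 2.18 in control samples. Control 2 was the highest of all samples and control 1 the lowest. Its difference was 0.69 ± 0.71 (SE), with a 95% interval of -0.86 to 2.25 and an adjusted p of 0.624 (limma). It was 0.30 without control 1, 0.39 without ligated 5 and 1.18 without control 2.

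miR-138, which limits the size of dendritic spines in rat neurons, reached a Ct of 17.87 in control 2, the lowest Ct of the 10 miRNAs in any sample. Its levels were 2.31, 3.45 and 4.39 in ligated samples and -0.18, 1.19 and 6.58 in control samples. The control samples spanned 6.76 on the log2 scale and the ligated samples 2.08. Control 2 lay above every ligated sample, while 4 of the other 5 controls lay below every ligated sample. The difference was 1.26 ± 1.02 (SE), with a 95% interval of -0.96 to 3.49 and an adjusted p of 0.528 (limma). It was 0.79 without control 4 and 2.15 without control 2.

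miR-129-3p, a brain-enriched arm, had levels of -1.84, 0.14 and 2.13 in ligated samples and -1.56, 0.93 and 1.19 in control samples. Its difference was -0.32 ± 0.67 (SE), with an adjusted p of 0.856 (limma), and was 0.67 with raw Ct and 0.068 without ligated 2. miR-153, a brain-enriched miRNA encoded within the gene of a secretory-vesicle protein, had detected Ct values between 30.28 and 34.00. Its levels were -9.80, -7.88 and -5.97 in ligated samples and -10.02, -8.02 and -5.83 in control samples, of which 3 were undetected. Its difference was 0.36 ± 0.85 (SE), with an adjusted p of 0.859 (limma), and was -0.26 with quantile normalization and -0.98 with undetected wells left missing.

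The glial miRNAs among the 10 were miR-219 and miR-338-3p. In mice, miR-219 and miR-338 promote the maturation of oligodendrocytes, the cells that make central myelin. miR-219 was detected in ligated 1, 4, 5 and 6 and in control 5, at Ct values between 29.49 and 31.03, and was listed at 40 in the other samples. No value lay between these, so the miRNA was either well inside the detection range or unamplified. Its fitted difference of 1.89 ± 1.36 (SE) had an adjusted p of 0.480 (limma) and is no bound, since both groups had undetected wells. It was 0.32 with undetected wells left missing, 0.43 with a detection limit of 32 and 4.39 with wells kept at the listed Ct, with no call in any. miR-338-3p had levels of -2.94, -1.92 and -0.58 in ligated samples and -5.55, -3.32 and -0.07 in control samples. Controls 2 and 3 were the highest of all samples, and the other 4 controls lay below every ligated sample. Its difference was 0.92 ± 0.85 (SE), with a 95% interval of -0.93 to 2.76 and an adjusted p of 0.591 (limma). It was 0.35 without control 4 and 1.46 without control 3.

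miR-383, known from brain and gonads, was detected at a Ct of 25.81 to 30.41 in the 6 samples numbered 1 to 3. In numbers 4 to 6 it was detected at Ct values of 32.95, 31.15 and 32.73 in ligated samples and listed at 40 in all 3 control samples. Its level was 4.95 higher in numbers 1 to 3 than in 4 to 6 on the log2 scale, with undetected wells at the limit, so the sets differed by more than the groups. Of the 6 miRNAs detected everywhere, 2 were over 1 higher in numbers 1 to 3, against 19.1% of all 283. The difference between groups was 0.78 ± 1.59 (SE), with an adjusted p of 0.850 (limma), and was -0.40 with a detection limit of 32. With 1 sample left out it ran from 0.11 without control 5 to 1.70 without control 2. With undetected wells left missing it was -2.16, but this sets all 6 ligated samples against controls 1 to 3 alone. That value thus mixes the difference between the sets with that between the groups. Within numbers 1 to 3 the difference between groups was -0.16.

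The comparison was repeated within each set. In numbers 4 to 6, all 10 miRNAs had a positive difference and the median was 1.62, against 0.03 over all 339 tested miRNAs. The 10 include miR-153, miR-219 and miR-383, which passed the filter through the ligated group alone. In numbers 1 to 3, 2 were positive and 8 negative, with a median of -0.14, against -0.13 over all. Over the 6 miRNAs detected everywhere, the medians were 1.07 in numbers 4 to 6 and -0.45 in numbers 1 to 3. Within numbers 4 to 6, miR-138 had levels of 2.51, 3.19 and 2.31 in ligated samples, against -0.18, 0.41 and 1.34 in control samples. It rose there by 2.15 ± 0.45 (SE), with an adjusted p of 0.0199 (limma, 3 samples per group). miR-137 had levels of 0.98, 1.96 and 0.93 in ligated 4, 5 and 6, against -0.46, -0.40 and 0.20 in control 4, 5 and 6. It rose there by 1.51 ± 0.36 (SE), with an adjusted p of 0.0294 (limma).

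These 2 of 10 calls stand beside 14.7% of all tested miRNAs called higher within numbers 4 to 6, and none of the 10 was called lower, where 15% were (29.8% in either direction). The other 8 did not pass there, with adjusted p-values of 0.0505 for miR-383, 0.0632 for miR-338-3p and for miR-219, 0.104 for miR-9 and 0.163 for miR-124 among them (limma). Every ligated sample lay above every control sample for 7 of the 10 (miR-124, miR-9, miR-137, miR-138, miR-219, miR-338-3p and miR-383), against 29.2% of all tested miRNAs. That count includes miR-219 and miR-383, which passed the filter through the ligated group alone. Over the miRNAs detected in all 12 samples it was 4 of 6, against 27.6% of all 283. For miR-383 all 3 controls, for miR-219 2 of 3 and for miR-124 1 of 3 were undetected. Within numbers 1 to 3, limma called 0 of the 10, where 1.47% of all were called, and 0 had an unadjusted p below 0.05. None of the 10 was separated there with the ligated samples higher, against 11.8% of all. The limma interaction test of unequal effects in the sets called 0 of the 10, with adjusted p-values from 0.545 to 0.780. Unadjusted p-values were below 0.05 for 2 of them, miR-9 at 0.0427 and miR-9* at 0.0435, and 0.295% of all tested miRNAs passed. The effects in the sets are therefore not shown to differ.

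**Figure D2:**
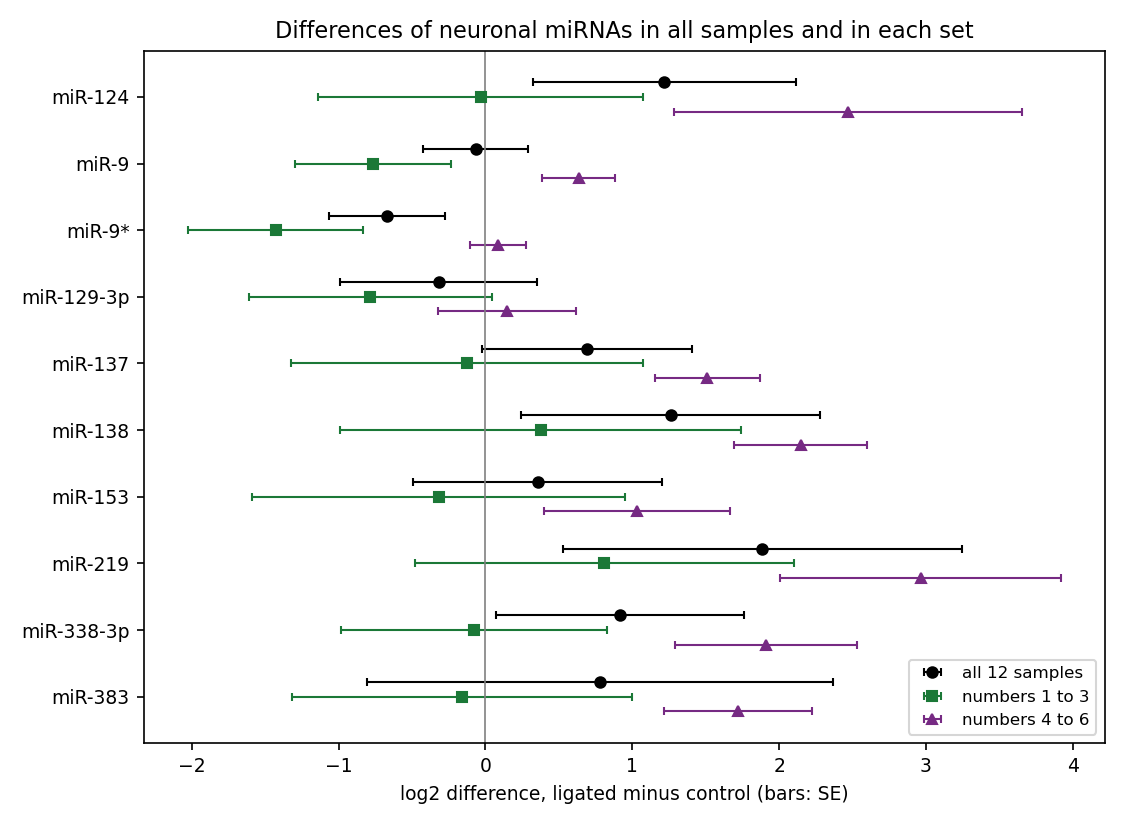
Difference of each miRNA on the log2 scale, ligated minus control, with the standard error of limma's fit as bars. Circles are all 12 samples, squares numbers 1 to 3 and triangles numbers 4 to 6. In numbers 4 to 6 all 10 points lie above 0, from 0.086 for miR-9* to 2.96 for miR-219, and in numbers 1 to 3 they run from -1.43 for miR-9* to 0.81 for miR-219.

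Markers of other cells also passed the test within numbers 4 to 6 (limma), with 4 of 5 leukocyte miRNAs higher in ligated arteries and 2 of 2 smooth muscle, 3 of 4 striated muscle and 2 of 7 tested epithelial miRNAs lower, where 14.7% of all tested miRNAs were higher and 15% lower. The summed log2 level of the 5 leukocyte miRNAs ran from 6.66 to 6.99 in ligated samples and from 5.66 to 6.03 in control samples, and that of miR-143 and miR-145 from 8.47 to 9.52 in ligated and from 12.10 to 12.45 in control samples. The 4 striated muscle miRNAs summed to 2.77 to 3.48 in ligated and 4.75 to 5.33 in control samples. For the epithelial list, with 5 of 8 miRNAs detected in all samples, the sums were 0.87 to 1.23 in ligated and 2.83 to 3.31 in control samples. These control sums are mostly miR-375, at 2.96, 2.75 and 2.08 in controls 4, 5 and 6. miR-200c overlapped, at -3.08, -2.96 and -2.15 in ligated and -4.73, -1.91 and -2.76 in control samples. Over all 12 samples, 5 of the 7 tested epithelial miRNAs had a positive difference, with a median of 1.22, beside 162 of all 339 tested miRNAs. The part of the shifts of these lists in the values of the neuronal miRNAs was not tested.

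Control 2 stood out among the controls. It was the highest of the 6 control samples for 6 of the 10 miRNAs (miR-124, miR-129-3p, miR-137, miR-138, miR-153 and miR-383), and control 3 for 3. Over the miRNAs detected in every sample, control 2 was the highest control for 3 of 6 neuronal miRNAs, against 25.1% of all 283, and the highest of all 12 samples for 2 of 6, against 15.2%. The neuronal miRNAs detected everywhere summed to a log2 level of 6.86 in control 2. The sums were 4.11 to 4.96 in the ligated samples and 2.95 to 4.98 in the other controls. The sum in control 2 is mostly miR-138, at 6.58 there, and for miR-9, miR-9* and miR-338-3p the highest control was control 3. In control 2 the 2 smooth muscle miRNAs summed to 9.82, the lowest of the controls, whose highest was 12.45, and the striated muscle miRNAs to 5.54, the lowest of controls 1 to 3, whose highest was 7.24. The part of these in its neuronal levels was not tested. With the sets as a block, 0 of the 10 were called, where 10.9% of all were higher and 8.85% lower (19.8% in either direction). With control 2 left out of the comparison without a block, 0 of the 10 were called, with adjusted p-values of 0.0595 for miR-138 and 0.238 for miR-137 (limma). With control 2 and ligated 2 both left out, chosen after seeing the data, 0 were called as well (0.104 for miR-138 and 0.111 for miR-137). With the sets as a block and control 2 left out, also chosen after seeing the data, the differences were 1.98 for miR-138 and 1.34 for miR-137 and both were called, where 14.8% of all were higher. Control 2 was singled out for its high levels of these very miRNAs, so these calls support nothing about them. Control samples varied more than ligated samples for 8 of the 10 miRNAs, as against 43.4% of all tested miRNAs. The 8 include miR-153 and miR-383, which passed the filter through the ligated group alone, and miR-124, all with undetected control wells. Of the 6 detected everywhere, all but miR-129-3p varied more in controls. These control spreads include control 2, and no SD was taken without it. The SD of miR-138 was 0.90 in ligated and 2.55 in control samples, and that of miR-338-3p was 0.77 in ligated and 2.09 in control samples.

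Most pairs of the 6 neuronal miRNAs detected everywhere had a positive correlation over the samples, and pairs of miR-129-3p with miR-338-3p and with miR-138 did not. Over the 15 pairs of these 6, Pearson's r of the level over 12 samples had a median of 0.44, from -0.23 for miR-129-3p with miR-338-3p to 0.88 for miR-138 with miR-338-3p, and 13 pairs were positive. Over all pairs of the 283 miRNAs the median was 0.00. Each sample was scaled to the mean of these same 283, which by itself holds their pairs near 0 on average. The medians over all pairs are therefore no independent comparison. With the mean of each group within each set removed, the median of the neuronal pairs was 0.74, beside 0.02 over all pairs. The neuronal pairs then ran from 0.47 for miR-137 with miR-338-3p to 0.92 for miR-137 with miR-138. Controls 1 and 2 lay far apart within their set, at -2.20 and 2.18 for miR-137 and at 1.03 and 6.58 for miR-138. The r of miR-137 with miR-138 rests largely on those samples, and no r was taken without them. These correlations describe the 12 samples as points, and the levels in a sample share its RNA and its scaling. Across the sets the miRNAs parted: miR-138 and miR-338-3p were 2.37 and 2.01 higher in numbers 1 to 3, whereas miR-129-3p was lower there, with a difference of -1.58.

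**Figure D3:**
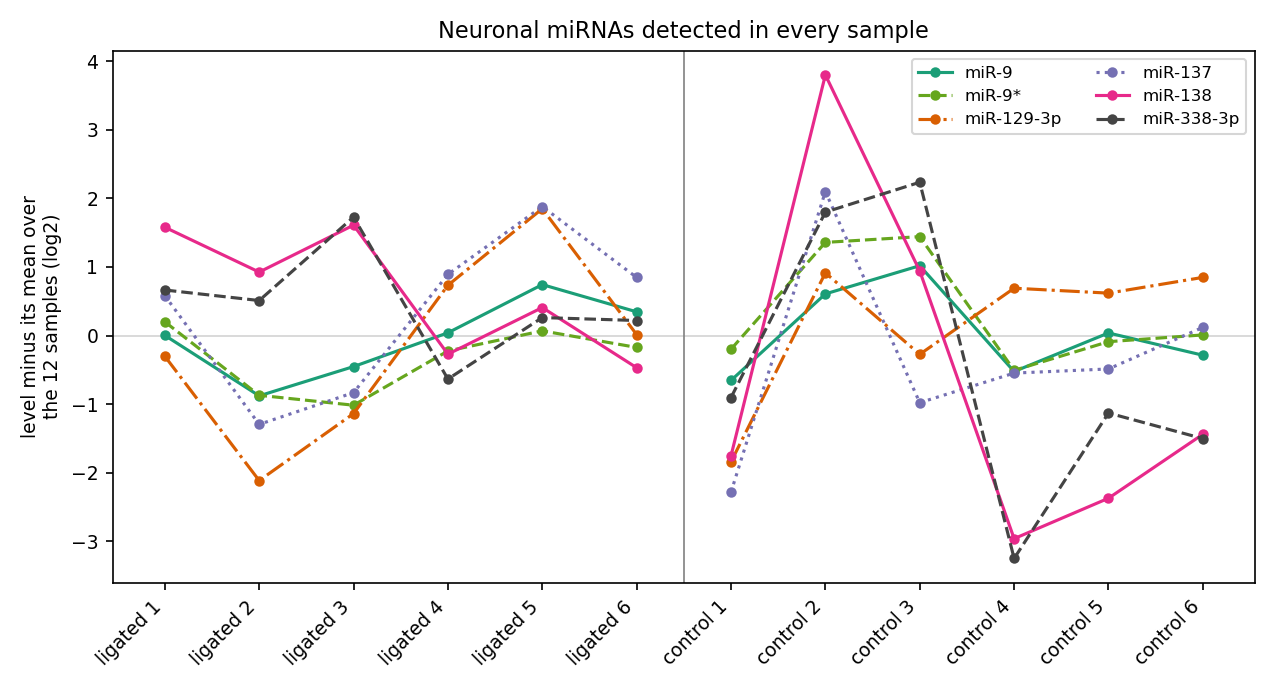
Level of the 6 neuronal miRNAs detected in all 12 samples, each minus its own mean over the samples (log2), in the 6 ligated and the 6 control samples; lines only join the points of a miRNA. miR-138 and miR-137 peak in control 2, and all 6 miRNAs lie below their own mean in control 1.

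The miRNAs outside the 10 with the most similar profiles over the 12 samples were found among 277 others detected in every sample. The second r given is that with group means removed, and neither r removes the difference between the sets. For miR-137 they were miR-7a (r = 0.94, then 0.94), miR-7b (0.94, then 0.93) and miR-382 (0.935, then 0.946). For miR-138 they were miR-149 (0.96, then 0.96), miR-409-3p (0.95, then 0.95) and its own other arm miR-138* (0.95, then 0.98). miR-129-3p was nearest to miR-382 (0.90, then 0.93), miR-598 (0.89, then 0.89) and miR-335-5p (0.83, then 0.83). miR-338-3p was nearest to miR-138* (0.88, then 0.90), miR-376a (0.86, then 0.87) and miR-384-5p (0.86, then 0.86). The neighbours of miR-9 and miR-9* were less close: miR-384-3p (0.77, then 0.80), miR-598 (0.76, then 0.76) and miR-190 (0.74, then 0.77) for miR-9, and miR-543 (0.79, then 0.72), miR-495 (0.73, then 0.64) and miR-760 (0.73, then 0.67) for miR-9*. With group and set means both removed, r ran from 0.59 for miR-9* with miR-760 to 0.985 for miR-137 with miR-382. For miR-338-3p it was then 0.76 with miR-138*, 0.64 with miR-376a and 0.80 with miR-384-5p. miR-7a, miR-7b, miR-149 and miR-598 belong to a wider list of neuronal and glial miRNAs, and 0 of these 4 passed between the groups over all samples (limma, adjusted p from 0.638 to 0.858).

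The wider list of 28 neuronal and glial names matched 23 assays, of which 20 were tested. Of the 20, 1 was higher in ligated arteries and none lower, with a median difference of 0.27 and a range of -4.47 to 1.70, where 7.37% of all tested miRNAs were higher and 5.01% lower. The lowest difference was that of miR-330*, detected in 2 of 6 ligated and 4 of 6 control samples. It passed the filter through the control group alone, and its size rests on where undetected wells are set. The 1 called higher was miR-135a, with a difference of 1.55 ± 0.46 (SE) and an adjusted p of 0.0455 (limma). With the replicate number as a block its adjusted p was 0.0769. Its call was lost when any 1 sample other than ligated 3, control 2 or control 3 was left out (adjusted p up to 0.0985). Its adjusted p was 0.427 when scaled to the control RNAs U6 and snoRNA429 and 0.182 with quantile normalization (limma). Of 33 alternatives, the call of miR-135a was kept in 10 and lost in 23. Within numbers 4 to 6 the list had 6 higher and 2 lower of 20 and a median of 0.72, where 14.7% of all were higher and 15% lower, with a median of 0.03. Those higher were miR-132 (0.81), miR-135a (2.29), miR-135b (2.25), miR-149 (0.75), miR-488 (2.35) and miR-7a (0.89), and those lower were miR-128a (-0.61) and miR-328 (-0.55). Within numbers 1 to 3 none passed. miR-488 was detected in 6 of 6 ligated and 2 of 6 control samples, so it passed the filter through the ligated group alone. It was listed at 40 in controls 4, 5 and 6. Its call within numbers 4 to 6, counted among the 6, and the size of its difference thus rest on where undetected wells are set.

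Both arms of a hairpin were detected in every sample for miR-9 and for miR-138, and their Ct difference within a sample does not depend on the scaling. miR-9* lagged miR-9 by 2.37, 2.96 and 3.24 cycles (lowest, median, highest) in ligated samples and by 1.82, 2.21 and 2.70 cycles in control samples. The means were 2.87 ± 0.35 (SD, n = 6) in ligated and 2.27 ± 0.32 (SD, n = 6) in control samples, and the gap was 0.61 cycles wider in ligated samples (exact permutation p = 0.0152, two-sided; adjusted p = 0.0939). miR-138* lagged miR-138 by 5.80, 6.04 and 6.16 cycles in ligated samples and by 4.54, 4.86 and 6.06 in control samples. Only control 2, at 6.06, reached the ligated range. The means were 6.02 ± 0.14 (SD, n = 6) in ligated and 5.02 ± 0.57 (SD, n = 6) in control samples, a gap 1.00 cycle wider in ligated samples (exact permutation p = 0.00866, two-sided; adjusted p = 0.0895). Both shifts had the same sign in each set, at 0.66 in numbers 1 to 3 and 0.55 in numbers 4 to 6 for miR-9, and at 0.91 and 1.09 for miR-138. Over the 62 arm pairs detected in all samples, 27.4% had an unadjusted p below 0.05 and 0% passed after adjustment, so neither shift was called over the family. The smallest p this permutation test can give is 0.00216, too large for 1 pair alone to pass among 62. The adjusted p therefore cannot decide on a single pair. The other arms of miR-124 and miR-129 gave little, with miR-124* undetected in all 12 samples and miR-129-5p detected in 3 of 6 ligated and 2 of 6 control samples.

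**Figure D4:**
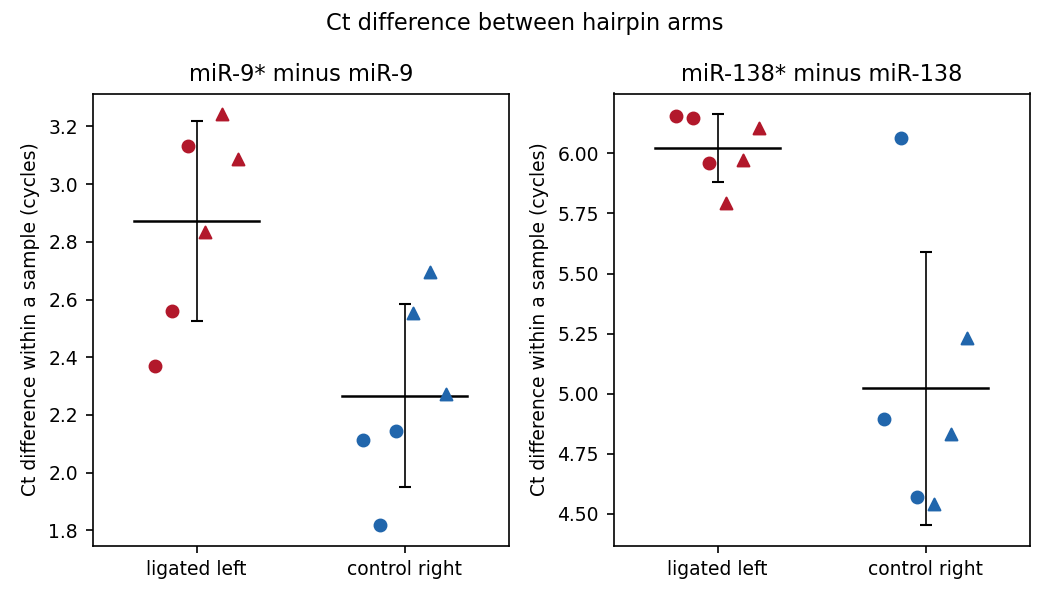
Ct difference between the 2 arms of the miR-9 and miR-138 hairpins within each sample (cycles) in ligated left and control right arteries. Points are samples (circles, numbers 1 to 3; triangles, numbers 4 to 6), bars are mean and SD. For miR-138 the ligated samples lie between 5.80 and 6.16 cycles, and of the controls only control 2, at 6.06, lies there.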

How the data were processed

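Total RNA was prepared by the submitters with a mirVana kit, per the labels' protocols. The main table deposited by the authors holds raw Ct values, used here as a score in which lower means more RNA, with unamplified wells at 40; the settings used to read the wells are not stated there. The deposited processed score is the Ct from which the average of U6 and snoRNA429 was taken, to within 5e-05 cycles over 513 rows. Another table, of a separate run of assays other than the 10, was not used. Groups and replicate numbers came from the sample titles. The numbers were taken as pairs only in an alternative: deviations of same-numbered samples correlated with r from 0.283 to 0.622, but with the sets 1 to 3 and 4 to 6 removed with r from -0.260 to 0.226, and no label ties arteries to a mouse, so p-values measure the spread between these samples. Ligated 5 and 6 were closest, with a mean absolute difference of 0.330, and all 12 samples were kept.

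Wells at a Ct of 35 or more were set to 35, each sample's Ct values were subtracted from its mean over the 283 miRNAs with no undetected well, and the 339 miRNAs detected in at least 4 of 6 samples of a group were fitted with limma 3.58.1 in R 4.3.3, calling adjusted p below 0.05. The fit was tested on simulated data. The 10 miRNAs, the lists and the sets were chosen with earlier results of these data known. Named beyond the 10 were other arms, called members of the wider list and the 3 nearest profiles of each fully detected miRNA. All 33 alternatives are described at the end. The number of samples limits the precision, and perfect amplification was assumed.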

Additional observations from a re-analysis of the deposited data

How the results depend on the processing

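Over 33 alternatives, no neuronal miRNA was called lower, and the number called higher was 0 except for 2 within numbers 4 to 6, 2 with array weights, 2 with the sets as a block and control 2 left out, and 3 within numbers 4 to 6 with ligated 5 and 6 averaged (miR-383 beside miR-137 and miR-138); the last 2 settings, and leaving out control 2 and ligated 2 together, were chosen after seeing the data. The replicate block (same-numbered samples paired) left the neuronal median at 0.74 and changed no call of the 10, with 30 higher and 22 lower over all miRNAs. Of 321 values of single neuronal miRNAs under an alternative, 281 kept their direction and side of the threshold, 9 passed it and 31 changed sign. The neuronal median moved most with raw Ct (1.72) and ran from 0.31 without control 4 to 1.27 without control 2 when 1 sample was left out. It was 0.39 without ligated 5 and 0.40 without ligated 1, each over 9 miRNAs because miR-219 no longer passed the filter there. All differences that changed sign were of miRNAs not called in the fit to all samples. With raw Ct, values were 0.92 for miR-9, 0.31 for miR-9* and 0.67 for miR-129-3p. miR-153 was -0.26 with quantile normalization and -0.98 with undetected wells missing. miR-383 was -0.40 at a detection limit of 32 and -2.16 with undetected wells missing, which leaves only controls 1 to 3 in its control group. Within numbers 1 to 3, values were -0.033 for miR-124, -0.13 for miR-137, -0.32 for miR-153, -0.076 for miR-338-3p and -0.16 for miR-383. Within numbers 4 to 6 they were 0.63 for miR-9, 0.086 for miR-9* and 0.15 for miR-129-3p, or 0.55, 0.057 and 0.11 with ligated 5 and 6 averaged. Array weights gave 0.48 for miR-9 and 0.10 for miR-129-3p, leaving out control 2 and ligated 2 gave 0.22 and 0.22, and the block without control 2 gave 0.075 and 0.025. Leaving out 1 sample moved miR-9 between -0.22 and 0.13, miR-129-3p between -0.72 and 0.068 and miR-153 between -0.014 and 0.83. Over all miRNAs, 25 were higher and 17 lower; the counts were 7 and 3 with U6 and snoRNA429, 57 and 0 with raw Ct, 8 and 4 in the deposited table, 5 and 0 in the first set (numbers 1 to 3), 50 and 51 in numbers 4 to 6 (41 and 31 with ligated 5 and 6 averaged), 51 and 50 with array weights, 50 and 51 with the block without control 2, 30 lower with the sets as a block and 11 lower with ligated 5 and 6 averaged. When single samples were left out, 15 to 26 were called higher and 9 to 20 lower. The cause of these changes was not tested. For miR-124, miR-153, miR-219 and miR-383, undetected wells hold only a bound.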
